A study of Mus musculus with 4 samples.

Results

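The cells described here are the collagen- and decorin-bearing stromal cells of mouse liver, that is hepatic stellate cells, portal fibroblasts and their relatives. They were chosen by their UMIs (unique molecular identifiers, each standing for 1 captured RNA molecule) in 4 single-cell RNA libraries. Only barcodes that held 500 or more genes and no more than 20% of UMIs from mitochondrial transcripts were considered. A chosen barcode carried at least 4 UMIs over Dcn, Col3a1, Col1a2, Lrat and Ecm1 with at least 2 of these 5 genes detected, no Ptprc and no Epcam UMI, and at most 2 UMIs of Ptprb and Stab2 together. Of 31290 kept barcodes, 59 met this rule (0.189%). The cells were selected on these genes, whose levels are therefore given as description only. The lowest UMI sum over the 5 genes among the chosen cells was 4 in NCD, 8 and 28 in HFD replicates 1 and 2, and 77 in JQF. Just outside the rule, with 2 or 3 UMIs over the 5 genes, lay 1, 4, 3 and 3 barcodes in the same order, and 3 NCD barcodes and 1 barcode of HFD replicate 1 failed with 3 or 4 UMIs of Ptprb and Stab2.

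All libraries came from perfused and digested livers of male C57BL/6J mice, for which the labels give no age. The NCD group received normal chow (1 library), the HFD group a high-fat diet (2 libraries), and the JQF group a high-fat diet and then Jiangtang Qingre Formula by mouth (1 library). According to the methods of the study, the NCD and HFD animals received distilled water by mouth in place of the formula, whose herbs, a fermented rice among them, were combined as granules and a decoction. The labels also call the samples a haematopoietic stem cell line and immune cells, and the markers of the chosen cells did not match either name. The rule itself barred Ptprc, the leukocyte antigen, and the 12 T and NK cell genes had no UMI in the NCD cells, 4 in those of HFD replicate 2 and 14 in those of JQF.

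Hepatic stellate cells lie between the sinusoidal endothelium and the hepatocytes, store retinyl esters made by Lrat, and in injured liver can turn into matrix-producing myofibroblasts. Portal fibroblasts surround the bile ducts and vessels of the portal tract, carry Thy1, Cd34, Dpt, Gsn and Pi16, and supply matrix there. Both cell types produce decorin and fibrillar collagen, so a rule built on Dcn, Col3a1 and Col1a2 collects both.

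The 59 cells fell into distinct kinds, and which kind was captured differed by library. Each cell was assigned to the stromal marker list over which it had most UMIs, other cell types not being considered. A kind stayed unnamed in a library where its cells were far shallower than that library's kept cells and none of its own markers was among its 10 leading genes. Both steps were chosen after the data were seen. All 5 NCD cells were stellate-like, with 11 to 88 UMIs over 25 genes of quiescent stellate cells and never more than 26 over any other stromal list. They were shallow too, but Reln and Colec11 were among their leading genes. One of them was named on 11 stellate UMIs although it held 14 UMIs of hepatocyte genes. All 18 cells of HFD replicate 2 were portal fibroblast-like, with 62 to 743 UMIs over the 16 portal fibroblast genes and at most 12 over another stromal list. None of these 18 was stellate-like, which allows a share of up to 16.7% by a limit of 3 cells, or 18.5% by the exact 95% interval. JQF held 31 portal fibroblast-like cells (88.6%, exact 95% interval 73.3% to 96.8%), 3 stellate-like cells (8.57%, 1.80% to 23.1%) and 1 smooth muscle-like cell. Of the list UMIs of the portal fibroblast-like cells, Gsn supplied 3552 of 7869 in HFD replicate 2 and 6833 of 14833 in JQF, and Thy1 41 and 37. Mfap5 and Pdgfra were among the leading genes in HFD replicate 2. In JQF none of the 10 leading genes was on that list, but the cells were not shallow and kept the name. Wt1 of the mesothelial list was among those 10, in 16 of 31 cells. A place in the portal tract was not tested. The single cell of HFD replicate 1 held 9 portal fibroblast and 6 quiescent stellate UMIs among 2077, none of its leading genes was a portal fibroblast marker, and it stayed unnamed. Comparing the libraries over all cells therefore compared mostly stellate-like cells in NCD with mostly portal fibroblast-like cells in HFD replicate 2 and JQF.

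**Figure D1:**
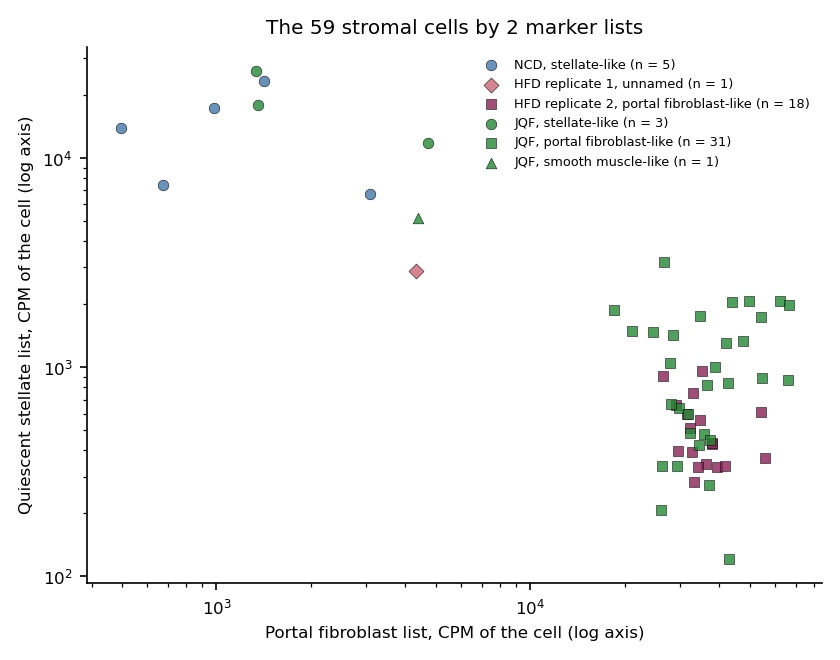
Each point is 1 of the 59 cells, placed by the summed level of the portal fibroblast list (x axis) and of the quiescent stellate list (y axis), both in CPM (UMIs scaled to the same total in every cell) on log axes. Colours mark the library and shapes the kind, with a diamond for the unnamed cell. The 5 NCD cells and 3 JQF cells sit at the upper left, and the 18 cells of HFD replicate 2 and 31 JQF cells at the lower right.

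Reln, a secreted glycoprotein that marks stellate cells, is one of the genes that assigned the kinds and not one of the rule. It had 32, 9, 14, 3 and 0 UMIs in the 5 NCD cells, 25, 69 and 21 UMIs in the 3 stellate-like JQF cells, and none in any portal fibroblast-like cell of either library. Lrat, the retinol-esterifying enzyme of stellate cells (chromosome 3, 82892579 to 82903973, GRCm38), was found in 2 of 5 NCD cells with 1 and 5 UMIs, in none of 18 cells of HFD replicate 2 and in 2 of 35 JQF cells with 5 and 8 UMIs. As a background, 0.758%, 0.0935% and 0.105% of the T cells of NCD, HFD replicate 2 and JQF carried a Lrat UMI, at median depths of 11121.5, 6943.5 and 8321.5 UMIs. Both NCD cells with Lrat held under 2000 UMIs, so no comparison of Lrat at that equal depth was possible. Reln, thinned to 2000 UMIs a cell, was found in all 3 NCD cells, in none of 17 cells of HFD replicate 2 and in 3 of 35 JQF cells. Ecm1, a secreted matrix protein and a rule gene, was present in all 5 NCD cells, all 18 cells of HFD replicate 2 and 34 of 35 JQF cells, but its level differed by kind within JQF. The 3 doublet-marked stellate-like JQF cells held 72, 101 and 24 UMIs (6532 CPM) and the portal fibroblast-like ones 0 to 22 UMIs (599.9 CPM). The 5 NCD cells held it at 1195 CPM and the portal fibroblast-like cells of HFD replicate 2 at 739 CPM, and thinned to 2000 UMIs a cell the means were 1.33 and 1.41 UMIs. Acta2, the smooth muscle actin by which myofibroblasts are recognised (chromosome 19, 34241090 to 34255590), was absent from NCD and HFD replicate 2, and 365 of its 366 JQF UMIs lay in the smooth muscle-like cell. Des, an intermediate filament of stellate and muscle cells, had 80 of 89 JQF UMIs in that same cell, which also carried 470 UMIs of Tagln and 159 of Myh11.

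The kept barcodes held a median of 13081, 7608, 7874 and 8884 UMIs in NCD, HFD replicates 1 and 2 and JQF, and the 59 cells themselves held 18413, 2077, 219285 and 467060 UMIs in all. Median depth of the chosen cells was 2021 UMIs in NCD compared with 11685.5 in HFD replicate 2 and 12440 in JQF, so 3 UMIs of the summed cells stand for 163 CPM in NCD but 13.7 and 6.42 CPM in the others. CPM here means UMIs scaled to the same total in every cell or sum of cells, and levels are compared between cells and not between genes. Libraries shared 101 kept barcodes over all pairs and no barcode of a chosen cell. The doublet caller marked none of the chosen cells of NCD or HFD and 5 of 35 in JQF, namely all 3 stellate-like cells, the smooth muscle-like cell and 1 portal fibroblast-like cell. NCD and JQF had 1 library each, so no test between groups was run, and every interval given here covers counting error only.

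The rule passed few of the NCD stellate-like cells. In NCD 128 barcodes met the criterion on the 5 genes and 123 of them were set aside, 77 of these for Ptprb and Stab2 alone, which are endothelial genes. Among the 123 were 19 barcodes with at least 50 UMIs over the 5 genes, all of them stellate-like and all with Lrat and Reln UMIs. Those 19 held a median of 31299 UMIs, 9 to 335 UMIs of Ptprb and Stab2, and 11889 CPM over the endothelial list against 23732 CPM in NCD endothelial cells. None of the 19 was marked by the doublet caller. The 5 NCD cells that passed thus held 1.22% of the Lrat UMIs and 2.84% of the Dcn UMIs of all kept NCD barcodes. Ptprb or Stab2 was also found in 37.1% of NCD T cells, compared with 1.31% to 6.88% in the other libraries, and at 2674 CPM in nearly empty NCD droplets, compared with 55.0 to 282 CPM elsewhere. The part that free endothelial RNA or joined cells had in setting these barcodes aside was not tested. In HFD replicate 2, 19 of 37 barcodes were set aside, and 4 of these had at least 50 UMIs over the 5 genes, all portal fibroblast-like. In JQF 19 of 54 were set aside, 11 of them with at least 50 UMIs (8 portal fibroblast-like, 2 stellate-like), and 6 of the 11 were marked as doublets.

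**Figure D2:**
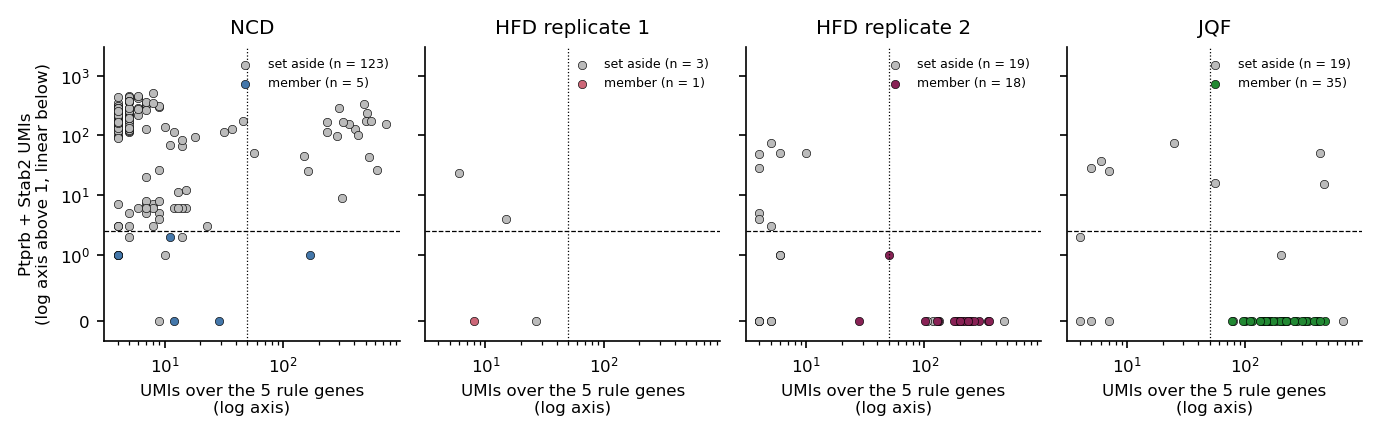
Each point is a barcode that met the criterion on the 5 rule genes, placed by its UMIs over those genes (x axis, log) and its UMIs of Ptprb and Stab2 (y axis, log above 1 and linear below), with 1 panel for each library. The dashed line marks the limit of 2 UMIs and the dotted line 50 UMIs over the 5 genes. In NCD 123 of 128 barcodes were set aside, including all 19 that lie right of the dotted line and above the dashed line, whereas the HFD replicate 2 and JQF cells lie along the bottom.

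As a share of kept cells, the chosen cells made up 0.0837% of NCD (5 of 5975, exact 95% interval 0.0272% to 0.195%), 0.0153% of HFD replicate 1 (1 of 6516, 0.000389% to 0.0855%), 0.175% of HFD replicate 2 (18 of 10259, 0.104% to 0.277%) and 0.410% of JQF (35 of 8540, 0.286% to 0.570%). The HFD libraries averaged 0.0954% ± 0.113 (SD, n = 2). The interval of JQF lay above those of the other libraries, while the intervals of NCD and HFD replicate 2 overlapped. The intervals of the HFD libraries did not overlap either, and with 1 library against 2 the smallest p that an exact permutation test allows is 0.333. Without the Ptprc, Epcam, Ptprb and Stab2 criteria, and with at least 50 UMIs over the 5 genes instead, the shares were 0.335% in NCD, 0% and 0.205% in HFD replicates 1 and 2, and 0.539% in JQF, so that NCD then lay above HFD replicate 2 instead of below it. A share of captured cells also reflects how well a cell type survives digestion, which cannot be told apart from its number in the liver.

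The first comparison asked how quiescent and fibrogenic genes differed between the HFD and NCD livers. Over the summed UMIs of the chosen cells, the quiescent stellate list was at 11785 CPM in NCD (217 UMIs) and 493 CPM in HFD replicate 2 (108 UMIs), a log2 difference of -4.58 (95% counting interval -4.93 to -4.24). The portal fibroblast list went the other way, from 1901 to 35885 CPM (log2 4.24), and the fibrogenic list, which leaves out the rule genes, stood at 7006 and 24694 CPM (log2 1.82, 1.57 to 2.08). Of the 129 NCD UMIs of the fibrogenic list 98 lay in 1 cell. The difference in kind described above enters each of these values, so they compare stellate-like cells on chow with portal fibroblast-like cells on a high-fat diet.

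A gene was called apart when the higher library had at least 20 UMIs and the levels differed at least 2-fold, the lower library being set to no less than 3 UMIs. Between HFD replicate 2 and NCD 363 of 1520 genes tested (23.9%) were apart, 315 higher (20.7%) and 48 lower (3.16%) in HFD replicate 2. The median log2 difference over all genes tested was 0.05. In the NCD cells 3 UMIs stand for 163 CPM, so genes of few UMIs in HFD replicate 2 were tested but could not be called higher. With at least 50 UMIs in the higher library, 315 of 574 genes tested were higher and 11 lower, with a median of 1.09. A lower call needed 20 UMIs among the 18413 of NCD, so higher and lower counts are not on equal terms. Of the 363 genes apart 86.8% were higher in HFD replicate 2. The share was only 33.0% in another set, made with 50 UMIs over the 5 genes and without the other criteria. It let in the NCD stellate-like barcodes described above. In that set of 20 NCD and 21 HFD replicate 2 cells the quiescent list differed by a log2 value of -4.27 and the fibrogenic list by 2.26. Of the 25 quiescent stellate genes 2 could be tested, and both were lower. Reln had 58 UMIs in NCD and 0 in HFD replicate 2, at least 230.2-fold lower, and Hgf, the hepatocyte growth factor, had 35 UMIs in NCD and 3 in HFD replicate 2, 139-fold lower (43.8 to 706), with 74.3% of its NCD UMIs in 1 cell. The 19 NCD barcodes set aside with at least 50 UMIs over the 5 genes held it at 844 CPM, and the 5 NCD cells at 1901 CPM. Cxcl12, a chemokine of stellate and marrow stroma, was present in all 5 NCD cells (57 UMIs) and in 7 of 18 cells of HFD replicate 2 (13 UMIs), 52.2-fold lower (28.2 to 104).

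Of 27 fibrogenic genes 18 could be tested, of which 11 were higher and 2 lower in HFD replicate 2, with a median log2 difference of 1.34. Over all genes tested 20.7% were higher and 3.16% lower. A lower call needed 20 UMIs in NCD, where the whole list held 129, against 5415 in HFD replicate 2. The balance of higher and lower calls therefore also reflects depth. Col1a1, the main fibrillar collagen chain of scars (chromosome 11, 94936224 to 94953042), had 4 UMIs in 2 of 5 NCD cells and 269 UMIs in all 18 cells of HFD replicate 2, 5.65-fold higher (2.18 to 20.9). Of the 4 NCD UMIs 75% lay in 1 cell, and the level was 217 CPM in the 5 NCD cells, 44.0 CPM in those 19 NCD barcodes and 1227 CPM in HFD replicate 2. Fn1, fibronectin, had none in NCD and 758 UMIs in all 18 cells, at least 21.2-fold higher. Vim, an intermediate filament of mesenchymal cells, was 8.22-fold higher (3.97 to 20.5), and Sparc, a collagen-binding matrix protein, 2.53-fold higher (1.66 to 4.06). Against this direction, Bgn, the proteoglycan biglycan, was 3.59-fold lower (2.39 to 5.28), with 88.6% of its NCD UMIs in 1 cell, and Tgfbi, a matrix protein induced by TGF-beta, was 74.4-fold lower (25.7 to 294). Among 20 collagens other than the rule genes 5 of 12 tested were higher and none lower. NCD held 49 UMIs over all these collagens and a lower call needed 20 in 1 gene, so lower calls were hardly possible.

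The portal fibroblast list, used in assigning the kinds, also differed. Mfap5, a microfibril protein, Pi16, a marker of universal fibroblasts, and Dpt, dermatopontin, had 829, 739 and 534 UMIs in HFD replicate 2 and none in NCD, at least 23.2-fold, 20.7-fold and 14.9-fold higher. Gsn, the actin-severing gelsolin, was 15.7-fold higher (10.0 to 26.1), although 94.7% of its NCD UMIs lay in 1 cell. The complement gene C3 had 2 UMIs in NCD and 796 in HFD replicate 2, with a counting interval of 9.22- to 276-fold. Over all genes tested 20.7% were higher and 3.16% lower. In the TGF-beta and BMP list 1 of 5 genes tested was higher and none lower, near those shares. The growth factor list gave 3 higher and 3 lower of 9, and the chemokine list 2 higher and 1 lower of 6. Summed, the TGF-beta and BMP list was lower, at 7060 CPM in NCD and 3448 CPM in HFD replicate 2 (1.69- to 2.47-fold). The growth factor list was lower too, at 10590 and 7055 CPM (1.29- to 1.74-fold), and the chemokine list stood at 3150 and 3051 CPM. Of the interferon list 1 of 6 was higher and 3 were lower, namely B2m, H2-K1 and H2-D1 of antigen presentation. Of the retinoid and lipid droplet list 2 genes could be tested and were higher. The list summed to 2009 and 1674 CPM, a ratio whose counting interval includes no difference (0.593- to 1.20-fold).

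Outside the lists, the genes lowest in HFD replicate 2 relative to NCD were Ank3, Camk1d, Prkg1, Macf1, Lars2, Nfia, Cmss1, Malat1 and Gphn. Camk1d, a calcium-dependent kinase, stood at 8798 CPM in the NCD cells and 707 CPM in those of HFD replicate 2, and it was likewise higher in NCD in T cells (2768 and 628 CPM) and in endothelial cells (6932 and 942 CPM). Malat1, a nuclear RNA, was 3.58-fold lower (3.29 to 3.89), while NCD T cells held 14199 and those of HFD replicate 2 11688 CPM. Of the 18 endothelial markers 9 were at 0 in the NCD cells, and the list summed to 0 to 9 UMIs a cell there (1086 CPM) and to 0 to 4 in HFD replicate 2 (45.6 CPM). The 16 hepatocyte markers summed to 1 to 14 UMIs a cell in NCD (1303 CPM) and 0 to 18 in HFD replicate 2 (365 CPM), and 5 and 2 of them were at 0. The part of this foreign RNA in the differences was not tested.

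The second comparison asked how the same genes differed between the JQF and HFD livers. It used the same cells of HFD replicate 2 as the first one, so the values of both share those cells. Over all chosen cells, 692 of 3685 genes tested (18.8%) were apart, 514 higher (13.9%) and 178 lower (4.83%) in JQF, and the median log2 difference was 0.19. The quiescent stellate list was higher in JQF, at 2488 CPM compared with 493 CPM (log2 2.34, 2.05 to 2.63), with 14 of 15 genes tested higher and none lower. Of its 1162 JQF UMIs, 628 came from the 3 stellate-like cells, 121 from the smooth muscle-like cell and 413 from the 31 portal fibroblast-like cells. Without the 5 cells marked as doublets the log2 difference was 0.99. The smooth muscle list was at 214 and 3454 CPM, and 1 cell held 1338 of its 1613 JQF UMIs. The fibrogenic list was lower in JQF, at 17368 compared with 24694 CPM (log2 -0.51, -0.56 to -0.46), with 6 of 24 genes tested lower and 5 higher.

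Because the kinds differed, the second comparison was repeated within portal fibroblast-like cells alone, 18 in HFD replicate 2 and 31 in JQF. There 540 of 3375 genes tested (16%) were apart, 385 higher (11.4%) and 155 lower (4.59%) in JQF, around a median log2 difference of 0.15. Within this kind the portal fibroblast list itself stood at 35885 CPM in HFD replicate 2 and 35879 CPM in JQF, with 1 of its 16 genes higher (Mfap4) and 2 lower in JQF. The lower ones were Thy1 by 2.09-fold (1.31 to 3.35) and Efemp1 by 2.09-fold (1.71 to 2.55). Both calls were lost without the top cell, a check that leaves out 1 cell of the library with the higher level only. The log2 differences were then -0.77 and -0.95. Dpt was 1.98-fold lower (1.75 to 2.24), just under the limit, while Gsn, Pi16, Mfap5 and Clec3b lay closer together. The fibrogenic list was at 24694 and 15776 CPM (log2 -0.65), a 1.51- to 1.62-fold lower level in JQF. Beside it, the macrophage list of 13 genes was at 155 and 29.0 CPM (0 to 5 and 0 to 2 UMIs a cell, 2 and 7 genes at 0). The hepatocyte list was at 365 and 235 CPM (2 of 16 genes at 0 in each) and the endothelial list at 45.6 and 106 CPM (12 of 18 at 0 in each). Of the 10 and 44 UMIs of the endothelial list, 4 and 27 were of Bmp2, which also belongs to the TGF-beta and BMP list below. The part of these macrophage, hepatocyte and endothelial genes in the differences was not tested. Per cell the fibrogenic list ranged from 16430 to 35084 CPM in HFD replicate 2 (median 23355) and from 8297 to 25603 CPM in JQF (median 15347), and the groups overlapped. The upper quartile of JQF, 16718 CPM, lay below the lower quartile of HFD replicate 2, 22667 CPM.

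Of the fibrogenic genes 22 could be tested within this kind, 6 lower and 2 higher in JQF, with a median log2 difference of -0.59. Over all genes tested within this kind 4.59% were lower and 11.4% higher. Fn1 (chromosome 1, 71585520 to 71653200) was lower in JQF by its median and its sum, with overlapping cells. Its level in single cells was 956 to 6187 CPM in HFD replicate 2 (median 4008) and 0 to 3036 CPM in JQF (median 587). Every cell of HFD replicate 2 and 29 of 31 JQF cells carried it, and the summed level was 4.18-fold lower in JQF (3.67 to 4.76). Thinned to 2000 UMIs a cell, it was found in 17 of 17 and 21 of 31 cells. Postn, periostin of remodelling matrix, was found in 8 of 18 and 9 of 31 cells and was 4.76-fold lower (2.82 to 8.30), but thinned it was found in 3 of 17 and 4 of 31 cells, too few to show a difference. Eln, the elastic fibre protein elastin, was 2.97-fold lower (1.78 to 5.06).

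Some fibrogenic genes called lower were driven by 1 and the same cell of HFD replicate 2, of 25111 UMIs. This cell also held most of the Ccl2, Ccl7 and Mgp UMIs of that library's portal fibroblast-like cells, described below. Thbs1, thrombospondin 1, had 79 UMIs in HFD replicate 2, 94.9% of them in 1 cell, and 2 UMIs in JQF (19.9- to 626-fold lower). Without the top cell of HFD replicate 2, 4 UMIs of Thbs1 were left there, and JQF, from which no cell was removed, kept its 2. The log2 difference of Timp1, an inhibitor of matrix metalloproteinases, went from -2.26 to 0.78 in the same way, because 92.9% of its 28 UMIs in HFD replicate 2 came from 1 cell. Tgfbi and Thbs2, which bind matrix and collagen, were higher in JQF, by 6.90-fold (2.54 to 26.3) and 4.17-fold (1.89 to 10.9). The other fibrogenic genes apart were still 2-fold apart in the same direction with cells weighted equally and without the top cell, where Thbs1 had too few UMIs to be tested.

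Among the fibrillar collagens, Col1a1 passed no call, and Col3a1 and Col1a2 belong to the rule and are described only. Col3a1 (chromosome 1, 45311538 to 45349706) had a median of 3508 CPM over cells of HFD replicate 2 (1211 to 8071) and 933 CPM over JQF cells (0 to 7187), and the summed level was 2.43-fold lower (2.18 to 2.70). Col1a1 had medians of 1182 CPM (277 to 3083) and 486 CPM (115 to 2412) and was 1.70-fold lower (1.44 to 2.01), under the limit for a call. Col1a2, the partner chain of Col1a1, was 1.46-fold lower (1.27 to 1.67), while Dcn was 1.24-fold higher (1.180 to 1.304). The cells of both libraries overlapped for each of these genes. Of the 20 collagens outside the rule 14 were tested, 5 lower and 1 higher. Over all genes tested in portal fibroblast-like cells 4.59% were lower and 11.4% higher. Col6a3 (3.67-fold, 2.45 to 5.58) and Col5a3 (5.19-fold, 2.87 to 9.84), which belong to microfibrils and to thin fibrils, were also 2-fold lower with cells weighted equally and without the top cell. Col4a5 of basement membranes was 6.60-fold lower (2.58 to 20.0) on 21 and 6 UMIs, too few to be tested without the top cell. The calls of Col4a2, Col12a1 and Col8a1 were lost without the top cell. Fbn1, fibrillin of microfibrils, Lum, lumican, and Sparc were 1.61-fold, 1.87-fold and 1.25-fold lower and passed no call.

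**Figure D3:**
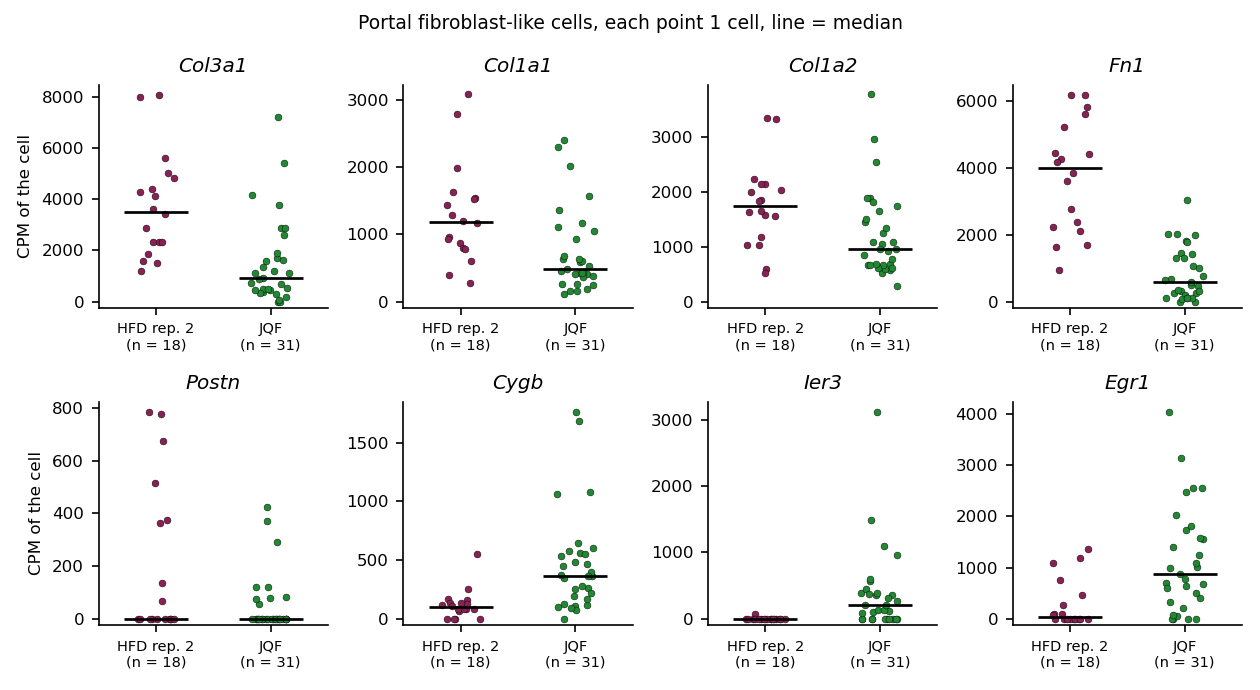
Level of 8 genes in single portal fibroblast-like cells of HFD replicate 2 (18 cells) and JQF (31 cells), in CPM of each cell on linear axes that differ between panels. Each point is a cell and the line is the median. The median of Fn1 is 4008 and 587 CPM and that of Col3a1 3508 and 933 CPM, whereas Cygb and Egr1 lie higher in JQF, and the points of both libraries overlap in every panel.

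**Figure D4:**
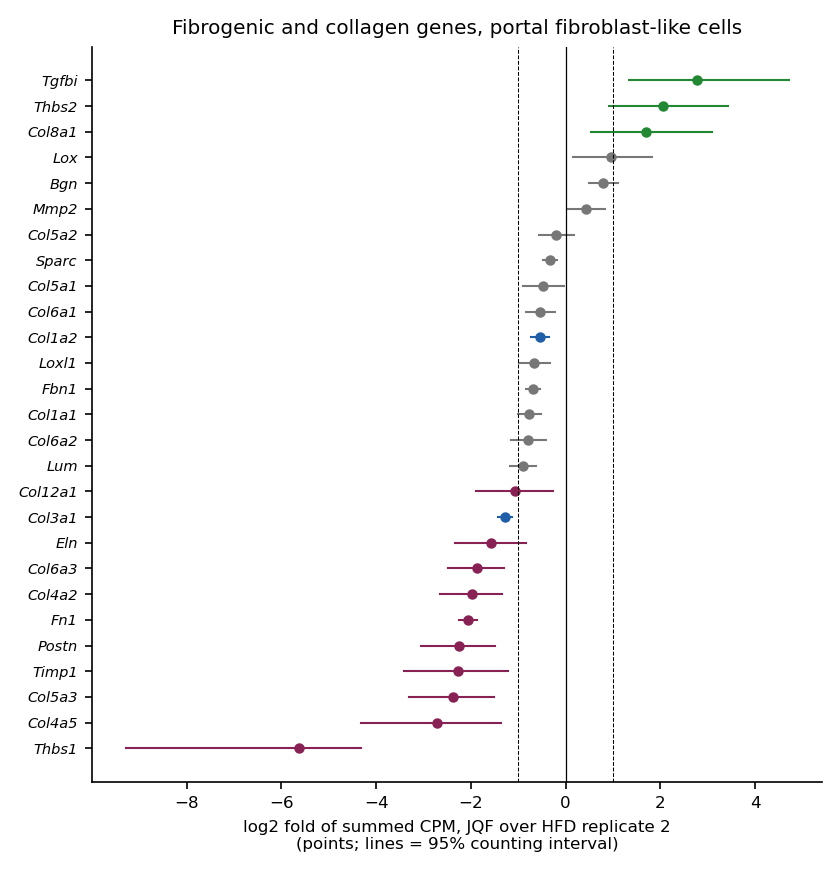
Log2 fold of the summed CPM, JQF over HFD replicate 2, for selected genes of the fibrogenic and collagen lists in portal fibroblast-like cells, with the rule genes Col3a1 and Col1a2 in blue as description only. Points are the folds, lines are 95% counting intervals, dashed lines mark 2-fold, green genes were called higher, purple genes lower and grey genes neither. Thbs1 had 2 UMIs in JQF and its point uses the floor of 3 UMIs, and 94.9% of its 79 UMIs in HFD replicate 2 lay in 1 cell. The calls of Timp1, Col4a2, Col12a1 and Col8a1 also rested on single cells.

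TGF-beta is the main inducer of matrix genes in liver stroma, and BMPs are related ligands. Of 16 TGF-beta and BMP genes tested in portal fibroblast-like cells 6 were higher in JQF and 1 lower. Over all genes tested in these cells 11.4% were higher and 4.59% lower. The summed TGF-beta and BMP list was level at 3448 and 3440 CPM. The ligand Tgfb2 (2.48-fold, 1.502 to 4.32), the receptor Acvr1 (2.92-fold, 1.21 to 8.52) and the inhibitor Smad7 (2.65-fold, 1.22 to 6.56) were higher. Bmp2, Bmp4 and Tgfb3 were also called higher but lost the call with cells weighted equally, and Bmp6 was 7.23-fold lower (2.86 to 21.7). Apart from Tgfb2, each of these genes had under 50 UMIs in either library. In the growth factor list 3 of 14 were higher, namely Igfbp3, Rspo1 and Wnt5a, and none lower, and none of the 3 calls remained without the top cell. The receptors of PDGF, a mitogen of stellate cells and fibroblasts, were close, Pdgfra at 456 and 327 CPM and Pdgfrb at 59.3 and 65.3 CPM.

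Over all genes tested in portal fibroblast-like cells 4.59% were lower and 11.4% higher in JQF. Among matrix turnover genes 17 were tested, with 1 lower (Timp1, above) and 1 higher. The higher gene was Mmp3, a metalloproteinase that cuts fibronectin and proteoglycans, with 1 UMI in HFD replicate 2 and 89 UMIs in 5 of 31 JQF cells. Mmp2, which digests basement membrane collagen, was at 351 and 472 CPM. Chemokines differed in both directions. Ccl11, which attracts eosinophils (chromosome 11, 82057823 to 82062955), was found in 8 of 18 cells of HFD replicate 2 (132 UMIs) and in 4 of 31 JQF cells (12 UMIs), 20.7-fold lower (11.5 to 41.2), and it alone of 6 called chemokines passed both checks. Thinned to 2000 UMIs a cell it was found in 2 of 17 and 3 of 31 cells, so a difference in how many cells carry it was not detectable at that depth. Ccl2, a monocyte attractant, had 373 UMIs in HFD replicate 2 of which 99.7% came from 1 cell. Its log2 difference turned from -4.70 to 2.08 without that cell, with all JQF cells kept. Ccl7 lost its call in the same check. Cxcl1, a neutrophil attractant, was called higher in JQF, in 20 of 31 cells compared with 3 of 18, and Il6 was found in 5 JQF cells and in none of HFD replicate 2. Of 8 complement genes tested 2 were lower, C3 by 2.11-fold (1.91 to 2.34) and Cd55 by 2.06-fold (1.70 to 2.498), both close to the limit and no longer apart without the top cell.

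In the quiescent stellate list 3 of 25 genes could be tested within portal fibroblast-like cells, and Cygb alone was apart. Cygb, cytoglobin, a haem protein of stellate cells and other fibroblasts, was found in 14 of 18 and 30 of 31 cells, with medians of 100.1 and 365 CPM, and was 3.69-fold higher in JQF (2.44 to 5.81). Lrat and Reln had no UMI in these cells of either library. None of 5 retinoid and lipid droplet genes and none of 6 interferon genes tested was apart, compared with 16% of all genes tested.

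Outside the fixed lists, several genes were higher in JQF. Has1, a hyaluronan synthase, had 3 UMIs in HFD replicate 2 and 136 in 18 of 31 JQF cells (8.06- to 118-fold), and Fmo2, a flavin monooxygenase, had 1 UMI and 142 UMIs (13.3- to 2996-fold). Anxa8, Myoc and Lsmem1 had no UMI in HFD replicate 2 and 86, 81 and 48 UMIs in JQF, in 17, 6 and 9 cells. Lsmem1 was not higher in these cells alone. It was at 3.78 CPM in T cells of HFD replicate 2 and 22.3 CPM in those of JQF. In endothelial cells it was at 1.10 and 5.10 CPM (7 and 21 UMIs). Cilp of cartilage matrix (1 and 58 UMIs) was carried by 3 of the 31 JQF cells. Mfap4 of elastic fibres (3 and 61 UMIs), the gene of the portal fibroblast list named above, was carried by 6, so few cells held either. On the lower side were Adamts16, a metalloproteinase of the matrix, with 33 UMIs and 1 UMI (10.4- to 2531-fold), and Gas7, an actin-binding protein, which was found in 16 of 18 and 17 of 31 cells and was 4.63-fold lower (3.05 to 7.16). Pcdh9, Skap2 and Rgs6 were also lower.

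Immediate early genes, which digestion of tissue induces, were in part higher in the JQF cells as well. The list of 22 immediate early and heat shock genes stood at 9531 CPM in HFD replicate 2 and 14446 CPM in JQF (log2 0.60). Over all genes tested in portal fibroblast-like cells 11.4% were higher and 4.59% lower, and in this list 10 were higher and 1 lower. Of these 11 calls 7 remained without the top cell. Those of Btg2, Fosb, Klf2 and Hspa1b did not, at log2 0.92, 0.88, 0.91 and -0.97, just under the limit. Of its heat shock genes Dnajb1 was higher (log2 1.94), Hspa1b was the gene called lower (log2 -1.14), and Hspa1a, Hspa8 and Hsp90aa1 were not apart. Per cell it ranged from 3339 to 22767 CPM (median 5846) and from 2143 to 26990 CPM (median 14581). Egr1, an early response transcription factor, was found in 9 of 18 and 27 of 31 cells and was 3.22-fold higher (2.54 to 4.14). Ier3, another early response gene, had 1 UMI in HFD replicate 2 and 153 UMIs in 21 of 31 JQF cells (14.4- to 3226-fold). The same list was also higher in JQF in T cells, at 22064 compared with 14896 CPM, and was 7031 and 6573 CPM in endothelial cells. Egr1 was higher in JQF T cells too (373 compared with 111 CPM), whereas Ier3 was lower there (38.3 compared with 58.7 CPM). In endothelial cells of JQF and HFD replicate 2, Egr1 was at 173 and 140 CPM and Ier3 at 71.5 and 50.5 CPM.

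Values were therefore taken again in the cells under 10000 CPM of this list, 13 in HFD replicate 2 and 9 in JQF. There Fn1 was 4.62-fold lower in JQF (3.74 to 5.76) and Postn, on 35 and 2 UMIs, 15.3-fold lower (3.93 to 131), Cygb was at 84.4 and 322 CPM, and the fibrogenic list was lower by a log2 value of -0.41. The rule gene Col3a1 was 1.53-fold lower (1.33 to 1.76), given as description, and Col1a1 was 1.22-fold lower with an interval that includes no difference (0.966 to 1.55). Ier3 stood at 0 and 121 CPM in the same cells. Of 1406 genes tested there 106 were higher and 134 lower in JQF, around a median log2 difference of -0.06. The groups still differed in this list, at 5069 CPM in HFD replicate 2 and 6947 CPM in JQF. They also differed in Mgp, a gene taken up below, at 28.1 and 1600 CPM. The part of either in these values was not tested. This split was chosen after the data were seen.

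**Figure D5:**
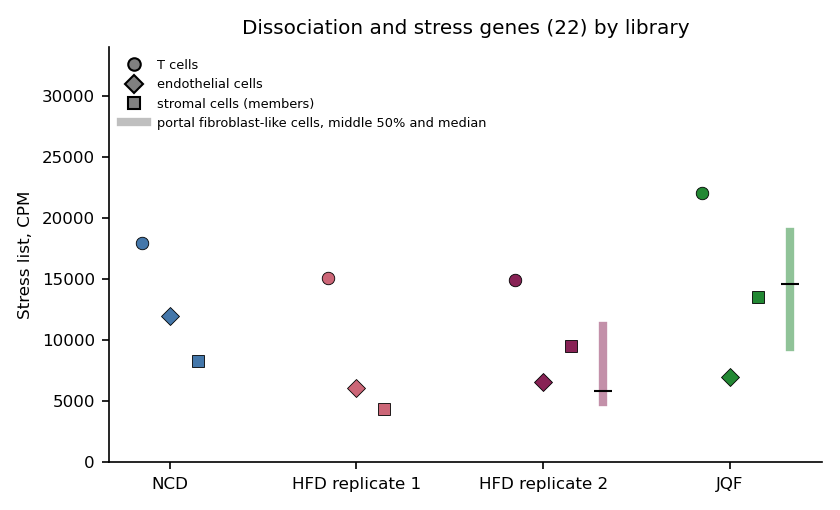
Summed level of 22 dissociation and stress genes, in CPM on a linear axis, by library. Circles are T cells, diamonds endothelial cells and squares all chosen stromal cells, each a sum over the cells of that library, and bars give the middle 50% of portal fibroblast-like cells with the median as a line. JQF is highest in T cells (22064 CPM) and in stromal cells (13525 CPM), whereas in endothelial cells NCD is highest (11994 CPM, with JQF at 7031 CPM).

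The portal fibroblast-like cells were not uniform. The genes used to describe this were chosen after their values were seen, and Mgp, Gas1 and Sbsn among them lie outside the fixed lists. Mgp, a calcification inhibitor, and Igfbp5, an insulin-like growth factor binding protein, were never found together at 5 or more UMIs. With at least 5 Mgp UMIs there were 1 cell in HFD replicate 2 and 9 cells in JQF, with at least 5 Igfbp5 UMIs 10 and 16 cells, and 7 and 6 cells had neither. In JQF the Mgp cells carried C7, a terminal complement component, at 797 CPM and the growth arrest gene Gas1 at 1866 CPM, compared with 8.22 and 292 CPM in the Igfbp5 cells. The Igfbp5 cells carried Pi16 at 5358 CPM, Sbsn at 711 CPM and Fn1 at 986 CPM, compared with 1749, 29.2 and 204 CPM in the Mgp cells. Cygb was at 865 CPM in the Mgp cells and 267 CPM in the Igfbp5 cells. The single Mgp cell of HFD replicate 2, the same that held most of the Thbs1, Timp1 and Ccl2 UMIs, held no UMI of C7 or Gas1. Of the 46 C7 UMIs of that library's cells 41 lay in those with neither marker (496 CPM), which differs from JQF. That cell was lower than the Igfbp5 cells of its library in Pi16 (39.8 and 4765 CPM), Sbsn (0 and 834 CPM) and Fn1 (956 and 4101 CPM), as in JQF, a comparison that rests on 1 cell.

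The share of Mgp cells differed between the libraries, so Fn1, Col1a1 and Cygb were also compared among cells with under 5 Mgp UMIs, 17 and 22 in number. Fn1 was 3.66-fold lower in JQF there (3.20 to 4.18), Col1a1 was 1.98-fold lower (1.63 to 2.41), and Cygb was higher by a log2 value of 1.39. The direction of each of these genes was the same as in all portal fibroblast-like cells.

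Stellate-like cells could be compared only between NCD (5 cells, 18413 UMIs) and JQF (3 cells, 30158 UMIs), and all 3 JQF cells were marked as doublets. The 5 NCD cells held 5076, 8433, 2021, 1475 and 1408 UMIs and the 3 JQF cells 8117, 15675 and 6366. Of 204 genes tested 97 (47.5%) were apart, 82 higher (40.2%) and 15 lower (7.35%) in JQF, around a median log2 difference of 0.70, so that a call here says little of any one gene. The quiescent stellate list was at 11785 CPM in NCD and 20824 CPM in JQF (log2 0.82, or 1.51- to 2.07-fold), close to that median, with 8 of 10 genes tested higher.

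Fcna, a ficolin of the lectin pathway, had 7 UMIs in NCD and 84 in JQF (7.33-fold, 3.404 to 18.8). The collectins Colec10 and Colec11 were 2.75-fold (1.26 to 6.84) and 2.09-fold (1.24 to 3.69) higher. Reln was at 3150 and 3813 CPM, Hgf at 1901 and 1592 CPM and Lrat at 326 and 431 CPM, all within 2-fold. The fibrogenic list was at 7006 and 10976 CPM (log2 0.65), and 2 of 7 genes tested were higher, Lum and the collagen chaperone Serpinh1. In the same NCD and JQF cells, in that order, the endothelial list was at 1086 and 66.3 CPM (9 and 16 of its 18 genes at 0). The stress list was at 8309 and 4211 CPM, the interferon list at 6083 and 12302 CPM and the hepatocyte list at 1303 and 1293 CPM. The 9 neutrophil and monocyte genes had no UMI in the NCD cells and 2, 8 and 1 UMIs in the 3 JQF cells. The part of these lists in the differences was not tested. Col1a1 had 4 UMIs in NCD and 3 in JQF, and Fn1 was not detected in NCD and had 2 UMIs in JQF. No statement on fibrogenic activation of stellate-like cells under JQF was possible at this depth, and for HFD it was not possible because no stellate-like cell passed the rule there.

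The single cell of HFD replicate 1 carried 5 UMIs of Dcn, 2 of Col3a1 and 1 of Col1a2. It had neither Lrat nor Ecm1. The genes highest in it relative to the other kept cells of that library were Mgp with 15 UMIs and Timp1 with 14 UMIs, against 28 UMIs of Timp1 in 18 cells of HFD replicate 2. It could not serve as a replicate of HFD replicate 2.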

How the data were processed

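Livers of mice on normal chow (NCD), a high-fat diet (HFD) or a high-fat diet with JQF were profiled with the 10x Genomics 3' v3.1 chemistry. The authors deposited raw UMI counts per gene and barcode for 32285 genes as filtered matrices. Their processing notes name Cell Ranger 6.0.1, Seurat 4.0.3 and mm10, whereas the headers of the files name a later Cell Ranger. Whether intronic reads were counted is not given in the sources used here.

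UMI counts of the chosen cells were summed per library and divided by their total (CPM). Because NCD and JQF had 1 library each, no test was run. A gene could be tested for a fold with at least 20 UMIs in the higher library, and was apart at 2-fold or more with the lower library set to at least 3 UMIs. Intervals are exact at 95% (Clopper-Pearson for shares, conditional binomial for folds) and cover counting error only. Genes in the text belong to fixed lists, or are among the 10 with the largest fold in each direction with at least 30 UMIs, no more than 50% of them in 1 cell. Genes outside this rule are named as such where they appear. The members and lists were chosen with earlier results of these data known. Assignment to kinds, the comparison within portal fibroblast-like cells and the splits by Mgp, Igfbp5 and stress genes were chosen after seeing the data. The list entry Ctgf is an older symbol of Ccn2, which was analysed under that name, and 1 fibrogenic gene counted in the list is not reported by name. Doublets were kept, and the highest Scrublet scores (0.8% per 1000 barcodes) were marked. Gene positions are those of GRCm38 (GENCODE M21). Alternatives comprised stricter filters, doublets left out, thinning to 2000 UMIs, edgeR and DESeq2 scaling without a test, and other limits for a call. The calculations used Python 3.11.15, numpy 2.4.6, scipy 1.17.1, pandas 2.3.3, scanpy 1.11.5, R 4.3.3, edgeR 4.0.16 and DESeq2 1.42.0, and were tested on simulated data.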

Additional observations from a re-analysis of the deposited data

How the results depend on the processing

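Of 104 values under alternatives, 68 stayed within the spread or 1.5 times the reported value, 36 moved, and no difference of the quiescent or fibrogenic list changed sign. Some of the 68 could not have moved. Asking for 8 UMIs over the rule genes removed no cell of HFD replicate 2 or JQF. Leaving out doublets removed no chosen cell of NCD or HFD replicate 2. With 1 of 2 HFD libraries left out, the share always stays within 1 SD of their mean. The cause of each move was not tested unless the alternative itself removes cells or genes. The HFD share of 0.0954% became 0.626% of cells without Ptprc and lay between 0.0153% and 0.175% with 1 HFD library left out, the JQF share became 3.20% of cells without Ptprc, and the NCD share 0.335%, then above the HFD share of 0.102%, with the 50-UMI rule that drops the Ptprc, Epcam, Ptprb and Stab2 criteria. For HFD replicate 2 against NCD, the 363 genes apart became 842 with TMM, 743 with DESeq2 size factors, 146 after thinning, 3007 with no minimum and 2916 with the 50-UMI rule. The share of them that was higher, 86.8%, became 10.5% with no minimum and 33.0% with the 50-UMI rule, where the median of all genes turned from 0.05 to -0.55. TMM and DESeq2 moved the median of all genes from 0.05 to 0.83 and 0.74. The quiescent list (-4.58) became -3.59, -3.69 and -5.28 with TMM, DESeq2 and thinning, and the fibrogenic list (1.82) 2.81, 2.71 and 2.24, with 2.24 for equally weighted cells and 2.26 with the 50-UMI rule. For JQF against HFD replicate 2, the 692 genes apart became 98 after thinning, 202 at 50 UMIs, 2007 with no minimum, 1428 at 1.5-fold, 1118 with the 50-UMI rule, 449 in portal fibroblast-like cells with under 5 Mgp UMIs and 240 in those low in stress genes. Their share higher, 74.3%, became 41.4% with no minimum, 63.3% with under 5 Mgp UMIs and 44.2% low in stress genes, where the median turned from 0.19 to -0.06. The quiescent list (2.34) became 0.99 without doublets, 3.05 after thinning, 1.02 in portal fibroblast-like cells, 0.53 with under 5 Mgp UMIs and 0.70 low in stress genes. The fibrogenic list (-0.51) became -0.63 without doublets, -0.58 for equally weighted cells, -0.45 with TMM, -0.56 with DESeq2, -0.59 after thinning, -0.60 with the 50-UMI rule, -0.65 in portal fibroblast-like cells and -0.41 low in stress genes. HFD replicate 1 in place of replicate 2 and an edgeR test were not run, because replicate 1 held 1 chosen cell. No paired analysis was possible because the groups share only 1 replicate number. In the NCD cells 3 UMIs stand for 163 CPM, and many genes could not be tested.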
